A study of Bos taurus with 8 samples.

Results

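The DEAD and DEAH box RNA helicases are enzymes that use ATP to open RNA duplexes or to strip proteins from RNA, and they are named after the amino acids of a conserved motif in their helicase core. Family members act at nearly every step of an RNA's life, from ribosome assembly and splicing to nuclear export, translation and decay. Genes were taken as members where their symbol in the array's probe annotation begins with DDX or DHX followed by a number. This gave 38 genes with 91 probes, of 12552 named genes and 43653 gene probes on the array. Of the 38 members, 29 had several probes, up to 6 for DHX29, and each gene is represented by its probe of highest mean intensity unless stated. The symbol DDX39 is the current DDX39A, and the other 37 symbols are current. No filter on low values was applied, so all 38 members were tested.

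RNA was measured in bovine in vitro produced embryos: inner cell mass (ICM) and trophectoderm (TE) cut by hand from day 9 blastocysts, intact day 9 blastocysts, and day 5 morulae, with 2 replicate samples in each of the 4 groups. All embryos came from in vitro matured and fertilized oocytes and were cultured under standard conditions. Each sample pooled many embryos, its RNA was amplified, and the isolated ICMs kept some attached TE cells. Each array set 1 sample against a common pool of blastocyst RNA that also held RNA of the blastocyst samples themselves. A value is thus a log2 ratio of sample over pool, and blastocyst ratios lie near 0 by design. Over all gene probes, the ratios of the 2 blastocyst replicates correlated at r = -0.546. The ICM, TE and morula pairs correlated at 0.373, 0.520 and 0.915. The fit treated the blastocyst replicates as independent, and the effect of the shared pool on its errors and p-values was not tested.

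Over the whole array, the median intensity of the sample channel ranged from 229.9 to 536, and 90.3% to 94.8% of gene probes lay above the local background. All 3 measured epiblast markers were higher in the ICM than in the TE on the log2 scale: NANOG by 3.73, SOX2 by 3.12 (limma, adjusted p = 0.0033 each) and PRDM14 by 1.34 (adjusted p = 0.018). Of 4 trophectoderm markers, GATA3 and PAG2 were lower in the ICM, close to the threshold, at -1.05 and -1.09 (adjusted p = 0.0496 and 0.0462), while GATA2 at -0.56 and TFAP2C at 0.46 did not pass (adjusted p = 0.20 and 0.26). None of the 5 primitive endoderm markers was called between ICM and TE on its brightest probe. The paper, with a different choice of probe per gene and a different test, lists HNF4A and FST of these 5 as higher in the ICM. It called more genes between ICM and TE than this fit, which called 167 higher and 29 lower in the ICM. Of the members, 37 or 38 lay above background in every sample. DHX33 did so in 5 of the 8 samples and DDX43 in 7, and no member probe was saturated.

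Blastocysts were compared with morulae to ask which helicase transcripts change between these stages. Of the 38 differences, 30 lay below 0, 78.9% against 45.9% of all genes, with a median of -0.56 on the log2 scale, against 0.04 over all genes. Calls required an adjusted p under 0.05 (limma, Benjamini-Hochberg over all gene probes) and a difference of at least 2-fold. By this rule 6 members were lower in blastocysts, which is 15.8% of them, where 7.15% of all genes were called lower. The 6 were DDX43, DDX47, DDX21, DDX52, DDX39 and DDX24. Only DHX57 and DHX32 were called higher, 5.26% of the members against 10.2% of all genes. With each array centred on its median in place of loess, 12 members were called lower and 2 higher, where 10.0% of all genes were called lower, and 45.9% of all calls were higher, against 58.8% under loess.

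The lower levels were widespread and mostly below 2-fold. Without the fold minimum, 23 members were lower at an adjusted p under 0.05, 60.5% of them against 18.7% of all genes, and 5 were higher, 13.2% against 21.1%. Both blastocyst values lay below both morula values for 25 members, 65.8% of them against 28.2% of all genes, and above them for 7, 18.4% against 32.4%. Of the 4 groups, the morula had the highest mean for 27 members, 71.1% of them against 36.6% of all genes. The cumulative plot shows this shift of the family between blastocysts and morulae, beside the smaller differences between ICM and TE. By intensity, 35 members lay among the upper 60% of gene probes. The shares of all genes given here include dim genes and were not matched to the members for intensity.

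**Figure D1:**
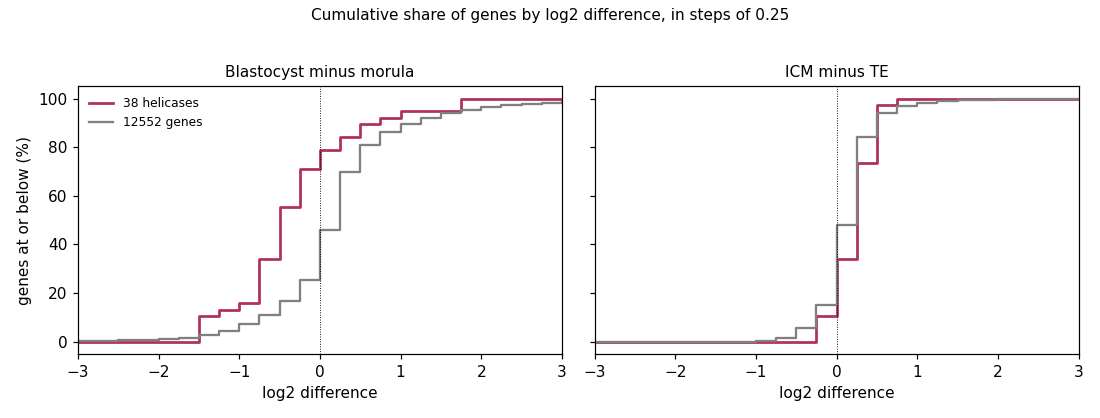
Cumulative share of genes (y axis, %) by log2 difference (x axis, in steps of 0.25) for the 38 helicases and for all 12552 genes, blastocyst minus morula on the left and ICM minus TE on the right. The helicase curve lies left of that of all genes between blastocysts and morulae, with medians of -0.56 and 0.04. Between ICM and TE the medians are 0.03 and 0.01, and 34.2% of the helicases lie below 0, against 48.2% of all genes.

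The summed level of an oocyte gene list was also higher in morulae. Summed over 6 measured oocyte genes and given relative to the median intensity of the array, the level was 9.8 to 11.0 in the day 9 samples and 18.7 and 19.4 in morulae, with 5 or 6 of the 6 above background in each sample. GDF9, BMP15 and ZP4, products of the oocyte, were called lower in blastocysts, and the other 3 of the 6 were not. For 4 blood cell genes the same measure was 14.2 to 18.5 on day 9 and 20.5 and 21.8 in morulae. For 6 spermatozoa genes it was 157.0 to 229.2 on day 9 and 153.4 and 142.9 in morulae. No gene of the blood or spermatozoa list was called between blastocysts and morulae. The part of RNA stored by the oocyte in the helicase differences was not tested. A lower ratio in these bulk samples cannot tell fewer cells with a transcript from less of it per cell.

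Ribosome assembly was the role with most called members. Its helicases remodel the precursor of ribosomal RNA and its small nucleolar RNA partners in the nucleolus, work that supplies ribosomes to a growing embryo. Of 11 measured members, 4 were called lower in blastocysts than in morulae, 36.4% against 7.15% of all genes, none was called higher, and the other 7 did not pass. The median difference of the role was -0.50.

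DDX21, a nucleolar helicase that links transcription of ribosomal RNA to its processing, had log2 ratios of 0.07 and -0.30 in blastocysts against 1.46 and 1.35 in morulae. Its level was 2.86-fold lower in blastocysts (log2 difference -1.52 ± 0.11 SE, adjusted p = 2.3e-04). The ICM, at 0.15 and -0.0017, and the TE, at -0.21 and -0.28, lay beside the blastocysts, so the morula pair stood alone.

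DDX47, counterpart of a yeast helicase needed for the small ribosomal subunit, showed the same separation. Its ratios were 0.04 and -0.23 in blastocysts and 1.53 and 1.34 in morulae, a difference of -1.53 ± 0.09 (SE, adjusted p = 1.4e-04). ICM samples read -0.05 and -0.23 and TE samples 0.03 and -0.30. All 6 day 9 samples thus lay more than 1 log2 unit below both morula samples.

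DDX52, whose yeast counterpart also acts on the small subunit, was the least even of this group. Its ratios were -0.01 and -0.50 in blastocysts against 1.47 and 1.05 in morulae (difference -1.51 ± 0.18 SE, adjusted p = 0.0013). ICM samples read 0.26 and -0.70, the widest gap between replicates of any member in that tissue, and TE samples -0.09 and -0.30. Even so, no day 9 sample reached a morula sample.

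DDX24, a helicase of the large subunit pathway, was close to the fold minimum. Its ratios were -0.04 and -0.10 in blastocysts and 0.91 and 1.00 in morulae, and the difference of -1.02 ± 0.09 (SE, adjusted p = 5.1e-04) fell under 2-fold, to -0.96 without replicate 2 of the blastocyst and to -0.98 without replicate 2 of the morula.

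The other helicases of ribosome assembly did not pass the rule. DDX54 and DDX27, also of the large subunit pathway, were lower by less than 2-fold, at -0.58 and -0.50 (adjusted p = 0.0043 and 0.026). DDX10, of the small subunit pathway, differed by 0.19 ± 0.11 (SE, adjusted p = 0.23), and DDX56 by -0.30 ± 0.13 (SE, adjusted p = 0.13) on its brightest probe. The second probe of DDX56 gave -0.98 ± 0.09 (SE, adjusted p = 4.7e-04), just under 2-fold. DDX51 and DHX37 ran the other way below 2-fold, at 0.63 and 0.49 (adjusted p = 0.0043 and 0.017). DHX33 differed by 0.02 (adjusted p = 0.93), with readings above background in 5 of the 8 samples.

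Splicing helicases drive the rearrangements of the spliceosome as it forms, cuts and is taken apart. Of 10 measured members, 1 was called lower in blastocysts than in morulae, 10.0% against 7.15% of all genes, and 9 did not pass, with a median of -0.61 for the role. The called member was DDX39, a close relative of the export helicase DDX39B. Its ratios were -0.07 and 0.19 in blastocysts and 1.37 and 1.59 in morulae, 2.67-fold lower in blastocysts (-1.42 ± 0.11 SE, adjusted p = 2.7e-04).

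DHX15, which dismantles spent spliceosomes and also serves ribosome assembly, was just under 2-fold. It had 0.09 and 0.22 in blastocysts against 1.20 and 1.06 in morulae (difference -0.97 ± 0.12 SE, adjusted p = 0.0015). DHX35, a component of the catalytic spliceosome, had -0.05 and -0.09 in blastocysts against 0.90 and 0.89 in morulae (difference -0.97 ± 0.10 SE, adjusted p = 8.9e-04). Both therefore separated the stages without overlap and missed the fold minimum.

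The remaining splicing helicases formed a gradient. DDX42, a partner of the branch site recognition factor SF3B1, differed by -0.86, DDX39B by -0.67 and DDX41 by -0.54, each at an adjusted p under 0.05 and below 2-fold. The 1 probe of DDX42 was dim, at a mean log2 intensity of 7.8. DDX23, DDX17 and DHX8 lay at -0.28, -0.21 and -0.12 and did not pass (adjusted p = 0.076, 0.42 and 0.63). DHX8, which releases the spliced message, is thus among the members with the smallest differences. DDX23, which exchanges small nuclear RNAs at the splice site, showed larger gaps on its dimmer probes. They read -0.19 and 0.13 in blastocysts against 0.37 and 0.38 in morulae, and -0.28 and 0.23 against 0.66 and 0.69.

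Helicases of mRNA export, translation and decay carry messages through the nuclear pore, onto ribosomes and to their end. Of 10 measured members none was called lower, DHX57 was called higher and 9 did not pass, with a median of -0.64. The role as listed also holds DDX1, DDX20 and the less studied DHX57, whose main work may lie elsewhere. The export helicase DDX39B and its close relative DDX39, which was called lower (-1.42), were counted under splicing. The counts of both roles depend on that choice. Where 18.7% of all genes and 60.5% of the 38 members were lower without the fold minimum, 7 of the 10 were. They were DDX20, a subunit of the SMN complex that assembles splicing particles (-0.93), DHX29, which helps the small ribosomal subunit scan structured leaders (-0.93), DDX3X, a translation initiation helicase (-0.91), DHX9 (-0.78), DDX19A, which releases messages at the nuclear pore (-0.75), DHX36, which unwinds quadruplex structures (-0.54), and the Y-linked DDX3Y (-0.46).

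Replicates were closer for some of these 7 than for others. The ratios of DDX20 were 0.03 and -0.19 in blastocysts against 0.95 and 0.76 in morulae, a difference of -0.93 ± 0.09 (SE, adjusted p = 7.2e-04). DHX36 had -0.19 and -0.47 in blastocysts against 0.38 and 0.04 in morulae (difference -0.54 ± 0.16 SE, adjusted p = 0.044), wider apart within each stage. DDX1, a helicase of the tRNA ligase complex, lay at 0.31 ± 0.10 (SE, adjusted p = 0.070) on its brightest probe and did not pass. The dimmer probes of DDX1 did not all share that sign. DHX34, which acts in nonsense-mediated decay, lay at -0.004 ± 0.10 (SE, adjusted p = 0.98). DDX3X and DDX3Y, like DDX39 and DDX39B, are close relatives, and whether their 60-base probes take up each other's transcript was not tested.

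The germline members were both lower in blastocysts. DDX43 is known in humans as a cancer/testis antigen, made in the testis and in tumours, and it had the largest fall of the family. Its ratios were 0.05 and -0.04 in blastocysts against 1.66 and 1.65 in morulae, 3.14-fold lower in blastocysts (-1.65 ± 0.09 SE, adjusted p = 1.2e-04). The ICM at 0.08 and 0.06 and the TE at 0.12 and -0.05 held the blastocyst level. In intensity, its single probe read 193 and 279 in blastocysts and 893 and 1250 in morulae, and 1 of the 8 samples was not above background. DDX25, a testis helicase needed for sperm formation in mice, had 0.19 and -0.40 in blastocysts and 0.59 and 0.55 in morulae (difference -0.67 ± 0.19 SE, adjusted p = 0.038), below 2-fold. No helicase of the list of RNA sensors was among the 38. Members counted under other roles were not examined for RNA sensing.

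Of the other members, the mitochondrial ribosome factor DDX28 differed by -0.62 (adjusted p = 0.0037), DDX59, mutated in a human orofaciodigital syndrome, by -0.62 (adjusted p = 0.0088), and the DNA helicase DDX11 by -0.32 (adjusted p = 0.14). None of these 3 passed the rule.

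**Figure D2:**
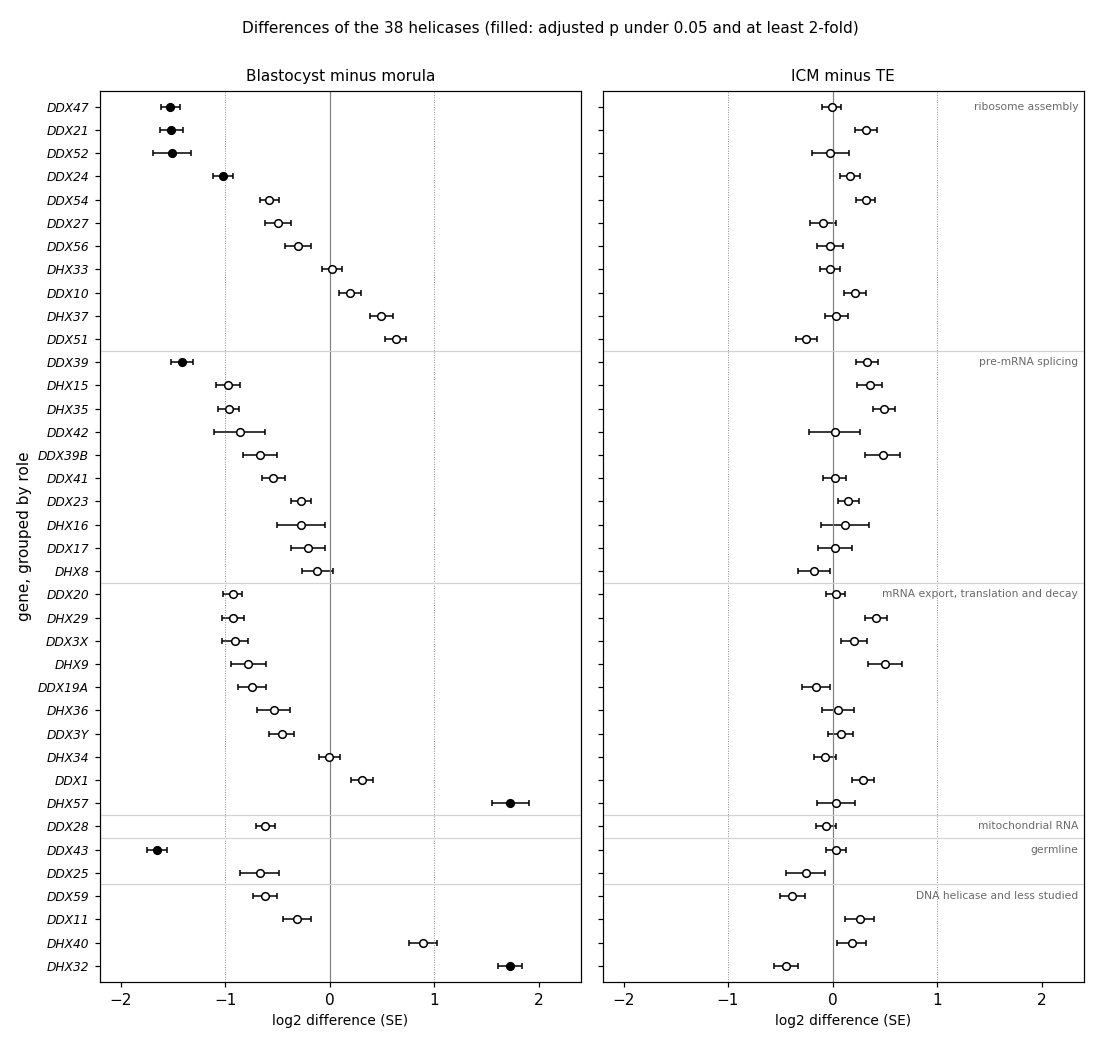
Log2 difference (x axis) with its standard error for each of the 38 helicases (y axis, grouped by role), blastocyst minus morula on the left and ICM minus TE on the right; filled points passed an adjusted p under 0.05 and 2-fold. On the left 6 filled points lie below -1 and 2 above 1, and on the right no point is filled and all lie between -0.45 and 0.50.

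DHX57 and DHX32, the 2 helicases called higher in blastocysts, are among the less studied of the family. DHX57 had ratios of -0.02 and -0.24 in blastocysts against -1.45 and -2.27 in morulae, 3.31-fold higher in blastocysts (1.73 ± 0.18 SE, adjusted p = 8.6e-04). DHX32 had 0.22 and 0.15 in blastocysts against -1.57 and -1.50 in morulae, 3.30-fold higher (1.72 ± 0.11 SE, adjusted p = 1.6e-04). The morula replicates of DHX57 differed by 0.82, yet both lay far under every day 9 sample. DHX40, another less studied member, was close behind, with 0.21 and -0.26 in blastocysts against -0.80 and -1.04 in morulae (difference 0.89 ± 0.14 SE, adjusted p = 0.0039).

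Probes of one gene did not always tell the same story for these higher members. The other 2 probes of DHX32 gave differences of 0.33 and 0.05, and those of DHX57 gave 0.03 and 0.12, none of them called. These probes were dimmer, at mean log2 intensities of 7.6 and 7.2 for DHX32 and 7.3 and 6.6 for DHX57, against 10.8 for the brightest probe of each gene. With the mean over all probes, both calls were lost, at 0.70 for DHX32 and 0.62 for DHX57. DHX40 had a second bright probe with a difference of 0.81, near the 0.89 of the first, while its 3 dimmer probes lay between -0.08 and 0.26.

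Probes of the lower members also differed in size. DDX39 had -1.42 and -1.37 on its 2 probes, DDX47 -1.53 and -1.10, and DDX21 -1.52, -0.63 and -1.04. DDX52 gave -1.51 on the bright and -0.80 on the dim probe. These 4 calls held with the mean over probes, whereas DDX24, at -1.02, -0.70 and -0.96 on its 3 probes, lost its call at -0.90. The mean over probes still gave 6 members lower in blastocysts, so a call was gained as well. Among members below 2-fold, DHX35 had -0.25 and 0.25 on its dimmer probes and DDX41 had -0.06, 0.15 and -0.17, so their differences rested on the brightest probe. No member had probes called in opposite directions in any comparison.

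For 3 members a call rested on a probe other than the brightest. DDX3X was at -1.08 and -1.17 on its dimmer probes (adjusted p = 5.0e-04 and 0.0018), DHX29 at -1.02 on 2 of its dimmer probes (adjusted p = 0.0012 and 0.028), and DHX9 at -1.03 on its second (adjusted p = 0.0037). All of these point the same way as the brightest probe of the gene. Over all 91 member probes, 14 were called lower and 2 higher, 15.4% and 2.20%, against 5.53% and 6.85% of all gene probes.

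**Figure D3:**
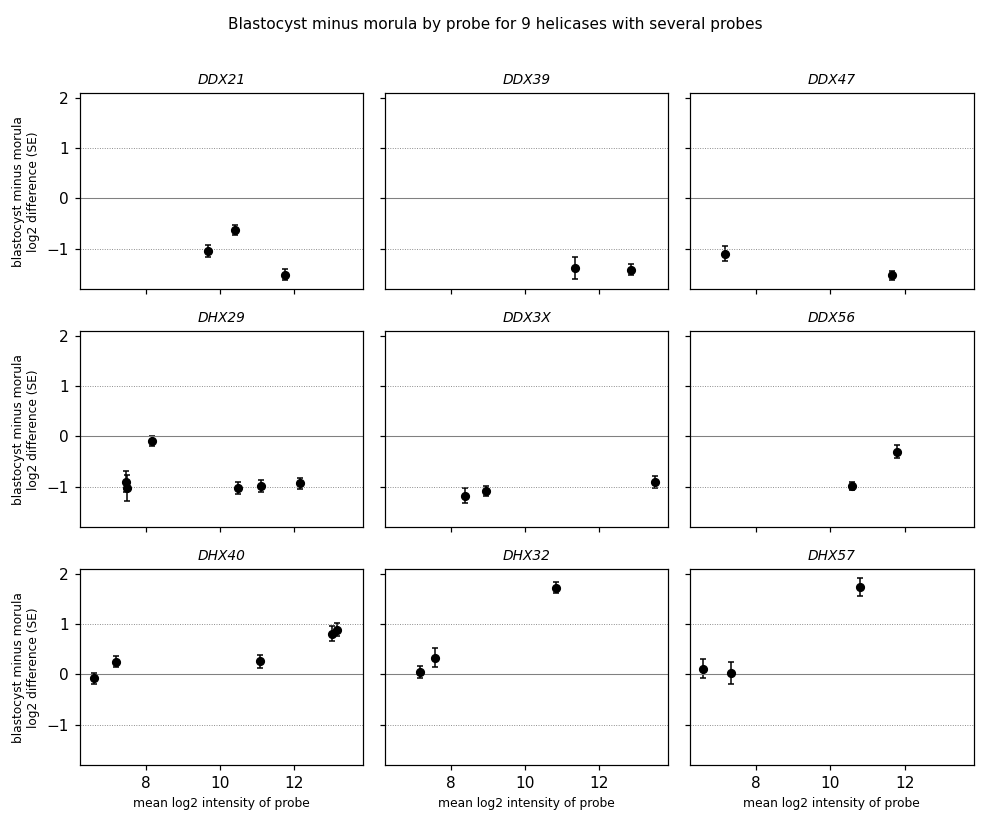
Blastocyst minus morula log2 difference with its standard error (y axis) for each probe of 9 helicases, by the mean log2 intensity of the probe (x axis). All probes of DDX21, DDX39, DDX47 and DDX3X lie below 0, whereas only the brightest probe of DHX32 and of DHX57 lies above 1.

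The ICM was compared with the TE to ask whether the cell types of the blastocyst differ in their helicases. No member was called, where 1.33% of all genes were called higher in the ICM and 0.231% lower. Without the fold minimum no member passed either, against 2.62% of all genes higher and 1.8% lower, while 12 of the 38, or 31.6%, had an unadjusted p under 0.05 in limma, against 21.8% of all genes. The differences ran from -0.45 for DHX32 to 0.50 for DHX9, with a median of 0.03 against 0.01 over all genes. For each of the 38 the 95% limits of the difference lay within 2-fold, from -0.71 to 0.90 on the log2 scale.

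The members with the largest differences were as follows, although none passed. DHX35 had 0.31 and 0.33 in the ICM against -0.27 and -0.06 in the TE, a difference of 0.49 (95% limits 0.24 to 0.74, adjusted p = 0.066). On the dimmer probes of DHX35 the tissues overlapped. These read -0.14 and 0.12 in the ICM against -0.03 and -0.01 in the TE, and 0.02 and -0.15 against -0.20 and -0.06. DHX9, a nuclear helicase also known as RNA helicase A, had 0.21 and 0.76 in the ICM against -0.04 and 0.00028 in the TE, a difference of 0.50 (95% limits 0.10 to 0.90, adjusted p = 0.19). The DHX9 difference came mostly from replicate 2, where the gap was 0.76, against 0.24 in replicate 1.

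DDX39B, which loads the export machinery on spliced messages, had 0.36 and 0.39 in the ICM against 0.06 and -0.26 in the TE (difference 0.48, adjusted p = 0.22). DHX29 had 0.38 and 0.31 in the ICM against 0.04 and -0.17 in the TE (difference 0.41, adjusted p = 0.11). DHX32 ran the other way, with -0.08 and -0.32 in the ICM against 0.34 and 0.15 in the TE (difference -0.45, adjusted p = 0.10), and so did DDX59, with -0.34 and -0.36 in the ICM against 0.18 and -0.11 in the TE (difference -0.39, adjusted p = 0.16).

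Both ICM values lay above both TE values for 15 members, 39.5% of them against 22% of all genes, and below them for 4, 10.5% against 22.6%. By same-numbered replicates, ICM was above TE in both for 16 members and below in both for 9, while for all genes these shares were 33.8% and 32.7%. Since none of these differences passed the test, the counts describe these 4 arrays only. The TE cells that stayed on the isolated ICMs would be part of every ICM value, and their share in these differences was not tested. Neither germline member passed, at 0.03 ± 0.09 for DDX43 and -0.26 ± 0.19 for DDX25 (SE, limma, adjusted p = 0.95 and 0.64). DDX25 had -0.45 and -0.24 in the ICM against -0.03 and -0.14 in the TE.

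ICM and TE were each also compared with morulae, with the same 2 morula arrays as the blastocyst comparison, so these values stand side by side and are not independent of one another. In the ICM, 7 members were called lower than in morulae, 18.4% of them against 6.72% of all genes, and 4 higher, 10.5% against 9.97%. In the TE, 9 members were called lower, 23.7% against 9.14%, and 3 higher, 7.89% against 11.1%. Without the fold minimum, 18 members were lower in the ICM, 47.4% against 18.5%, and 7 higher, 18.4% against 22.1%, and in the TE 21 were lower, 55.3% against 21.3%, and 6 higher, 15.8% against 23.3%. With median centring 12 members were called lower in the ICM, where 11.6% of all genes were. Medians were -0.40 for ICM minus morula and -0.52 for TE minus morula, against 0.06 and 0.03 over all genes.

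Helicases of ribosome assembly were 3 of the 7 members called lower in the ICM and 4 of the 9 called lower in the TE, with role medians of -0.40 (ICM) and -0.45 (TE), against -0.47 and -0.63 for splicing. Relative to morulae, DDX47 stood at -1.57 in either tissue, DDX21 at -1.33 (ICM) and -1.65 (TE), and DDX52 at -1.47 (ICM) and -1.45 (TE). DDX24 was called lower in the TE (-1.08, adjusted p = 3.3e-04) and stayed below 2-fold in the ICM (-0.92, adjusted p = 8.0e-04). DDX43 was 3.00-fold lower in the ICM and 3.07-fold lower in the TE.

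Among splicing helicases, DDX39 stood at -1.43 (ICM) and -1.75 (TE) relative to morulae, and DHX15 at -1.03 (ICM) and -1.39 (TE). DHX35 was called lower in the TE (-1.07, adjusted p = 4.9e-04), where it lost 2-fold without replicate 1 of the TE (-0.96), and had -0.57 in the ICM (adjusted p = 0.0070). DHX15 in the ICM fell under 2-fold without replicate 1 of the ICM (-0.94) and without replicate 1 of the morula (-0.95). DHX29, the scanning factor, was -1.25 in the TE (adjusted p = 3.1e-04) and -0.84 in the ICM (adjusted p = 0.0018). DDX19A was called lower in the ICM alone of the day 9 groups, at -1.01, and it fell just under 2-fold without replicate 1 of the ICM and to -0.95 without replicate 1 of the morula, and its ICM and TE levels did not differ by test (-0.16, adjusted p = 0.72).

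Other probes add calls here as well. In the ICM, DDX3X was called on its 2 dimmer probes (-1.19 and -1.30) and DDX56 on its second (-1.03). In the TE, DDX3X (-1.10 and -1.14), DDX56 (-1.09), DDX39B (-1.12) and DHX9 (-1.01) were called on a probe other than the brightest. With the mean over probes, the ICM calls of DDX19A, DDX21, DHX15, DHX32, DHX40 and DHX57 were lost, and in the TE those of DDX24, DHX29, DHX32, DHX35 and DHX57, with DHX35 at -0.38. The members lower then numbered 5 in the ICM and 7 in the TE, with a call gained in each.

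The called higher members were DHX57 (1.94 for ICM and 1.91 for TE), DHX32 (1.34 for ICM and 1.78 for TE) and DHX16 in both tissues, with DHX40 in the ICM only. DHX40 was at 1.01 in the ICM and lost 2-fold without replicate 2 of the ICM (0.96) and without replicate 2 of the morula (0.98); in the TE it was 0.82.

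DHX16 had a pattern of its own. It is the counterpart of the yeast helicase that activates the spliceosome before the first catalytic step. Its log2 ratios were 1.48 and 2.22 in ICM samples, and 1.71 and 1.75 in TE samples, against -0.36 and 0.33 in intact blastocysts and 0.30 and 0.22 in morulae. Both dissected tissues therefore lay above both kinds of intact embryo.

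Relative to morulae DHX16 was 3.01-fold higher in the ICM (adjusted p = 0.0030) and 2.77-fold higher in the TE (adjusted p = 0.0034), while blastocysts differed from morulae by -0.28 ± 0.23 (SE, adjusted p = 0.44). Set against blastocysts, a comparison added after these values were seen, the differences were 1.87 in the ICM (95% limits 1.31 to 2.42, adjusted p = 0.065) and 1.75 in the TE (95% limits 1.19 to 2.30, adjusted p = 0.11), and neither passed. In those comparisons 0.104% and 0.0319% of all genes were called higher, none and 0.0159% lower, and no member either way. Only 1 probe reports DHX16, and the blastocyst replicates differed by 0.69, so the part of the probe or of the dissection in this pattern was not tested.

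**Figure D4:**
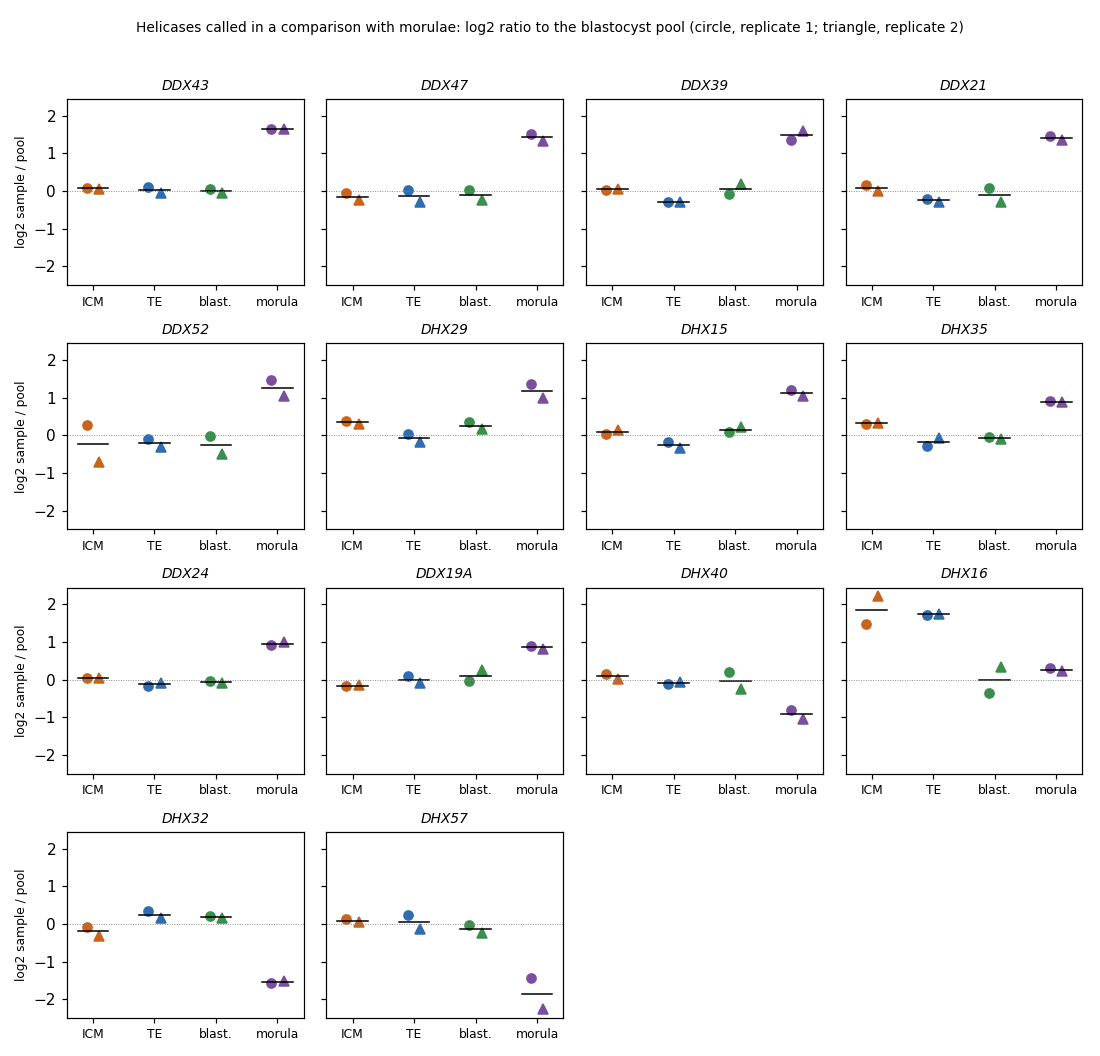
Log2 ratio of sample over blastocyst pool (y axis) in ICM, TE, blastocyst and morula samples (x axis) for the 14 helicases called in a comparison with morulae, with circles for replicate 1, triangles for replicate 2 and lines for group means. The morula pair stands above the 6 day 9 samples for 10 genes and below them for DHX40, DHX32 and DHX57, while for DHX16 the ICM and TE pairs stand above blastocyst and morula.

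The proteins these helicases work with were read on the same arrays, from lists of partners, where 7.15% of all genes were called lower in blastocysts than in morulae and 10.2% higher. Nucleolar U3 and pre-60S assembly proteins, the setting of the ribosome helicases, were lower in blastocysts than in morulae for 19 of 35 measured genes (54.3%), and none was called higher. UTP20, a scaffold of the small subunit processome, differed by -2.07, NOP16 by -1.72 and WDR36 by -1.62 (adjusted p = 9.0e-05, 1.7e-04 and 2.4e-04). UTP6 was the brightest that did not pass, at -0.49 (adjusted p = 0.015), with 1 saturated array. The list median was -1.06, lower than that of the ribosome helicases themselves.

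G-patch proteins switch on DEAH helicases such as DHX15 and DHX16. Of 14 measured, 4 (28.6%) were lower in blastocysts, among them CHERP (-1.55), RBM10 (-1.40) and CCDC75 (-1.29), none was higher, and RBM5 at -0.38 (adjusted p = 0.074) was the brightest that did not pass. In the ICM and TE the counts lower than in morulae were 4 and 5.

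Export partners were also lower in part. Of 8 nuclear export partners of DDX19, 4 were lower in blastocysts, among them the pore proteins NUP98 (-1.58) and NUP88 (-1.25) and the export factor RAE1 (-1.24), and GLE1, the activator of DDX19, did not pass at -0.43 (adjusted p = 0.069). Of 11 exon junction and TREX proteins that work with DDX39B, 3 (27.3%) were lower, CIP29 (-1.45), RBM8A (-1.31) and ZC3H11A (-1.03), and ALYREF at -0.70 (adjusted p = 0.0080, 1 saturated array) did not pass. The SMN complex of DDX20 had 1 of 8 lower (12.5%), GEMIN5, which recognises small nuclear RNAs (-1.31), and STRAP at -0.47 (adjusted p = 0.015) did not pass.

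Decapping and repression partners of DDX6, a helicase that is not among the 38, include proteins that silence stored maternal messages. Of 17 measured, 5 (29.4%) were lower in blastocysts and none was higher. CPEB1, which binds the tails of stored messages in oocytes, had the largest difference of any partner at -3.36 (adjusted p = 9.8e-05), followed by the deadenylase CNOT6 at -1.88 and LSM1 at -1.79. CNOT1, the scaffold of the deadenylase complex, was at -0.56 (adjusted p = 0.0076) and did not pass.

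Of the piRNA pathway, in which germline helicases work, 2 of 15 measured genes (13.3%, against 7.15% of all genes) were lower in blastocysts, HENMT1 (-2.57) and GTSF1 (-1.16), and TDRD5 at 0.03 did not pass. Of 15 measured genes of the RNA-sensing pathway 2 were higher in blastocysts, 13.3%, near the 10.2% of all genes. They were the interferon-induced MX1 (2.05, adjusted p = 0.0037) and EIF2AK2 (1.12, adjusted p = 0.0092), and IRF3 at 0.26 (adjusted p = 0.075) did not pass. None of the 4 measured Microprocessor partners of DDX17 and none of the 2 of the tRNA ligase complex of DDX1 was called, with HNRNPA1 at -0.07 and FAM98B at 0.64 as their brightest.

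Outside the symbol rule, 19 other RNA helicases were measured, of which 2 were called lower (10.5%) and 1 higher (5.26%). EIF4A3, which clamps exon junction complexes onto RNA, was lower in blastocysts at -1.56 (adjusted p = 2.2e-04) and EIF4A2 at -1.43 (adjusted p = 2.3e-04, 1 saturated array). TDRD9, a piRNA helicase of the mouse male germline, was higher at 1.24 (adjusted p = 0.0012), and the translation helicase EIF4A1 at -0.18 (adjusted p = 0.31) did not pass. The list's median was -0.26, between that of the members and that of all genes.

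Between ICM and TE, 1 gene of all these partner lists was called, the U3 protein IMP4, which was higher in the ICM at 1.05 (adjusted p = 0.012). The nucleolar list had a median of 0.33 there, against 0.01 over all genes.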

How the data were processed

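Gene expression was measured on 8 bovine two-colour oligonucleotide arrays, 2 for each of 4 groups. The intensities deposited by the authors are mean spot intensities extracted with Imagene, neither normalized nor background-subtracted. The authors also deposited a matrix of log2 values, which are ratios after loess and correction of gene-specific dye bias and served as an alternative; each column correlated with the log2 ratio of its array (r = 0.727 to 0.993), and their centring is not stated. The genome build of the probes is not given in the sources used here.

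Ratios were normalized by loess within each array, control spots left out, and fitted with limma 3.58.1 in R 4.3.3 with group and dye terms over all 8 arrays (3 residual and 3.17 prior degrees of freedom), with Benjamini-Hochberg adjustment over 43653 gene probes. The fit was run on simulated data with independent noise and a dye term of the form that is fitted. That run held no shared blastocyst pool, so it checks the code and not the errors on these arrays. In every group dye and replicate number coincide, so the dye term is the replicate block; replicate differences correlated between groups with r from 0.201 to 0.486, a check that cannot separate pairing from dye. The methods took the most 3′ probe of a gene; the brightest was used here. Replicates are biological replicates by the study's methods, and their number limits the precision. Figures used Python 3.11.15 and matplotlib 3.10.9.

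The members and the lists of roles, partners and markers were chosen with earlier results of these data known. Genes are named by a rule: per comparison the 10 called members of largest difference in each direction, per role up to 4 called and 2 not passing by intensity, per partner list up to 3 called and 1 not passing, all germline members, and members called only on another probe. DDX10, DDX56, DHX33, DHX37 and other members outside this rule were named after their values were seen. Alternatives covered background correction, centring, quantile scaling, the series matrix, dim probes, the block, the arrays fitted, the fold minimum, the choice of probe and each replicate left out.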

Additional observations from a re-analysis of the deposited data

How the results depend on the processing

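No call of a member changed direction under any alternative, for the 6 comparisons run, while differences that passed in neither setting changed sign in 4 (TE and morula) to 40 (ICM and TE) cases per comparison. Against morulae, the counts moved most with the fold minimum. At 1.5-fold, blastocysts had 18 members lower and 4 higher, the ICM 13 lower, and the TE 15 lower and 5 higher. With no fold minimum blastocysts had 23 lower and 5 higher, the ICM 18 and 7, and the TE 21 and 6. Median centring in place of loess gave blastocysts 12 lower and the ICM 12; over all genes it changed the share of blastocyst calls that were higher to 45.9%, against 58.8% under loess, for ICM over TE to 65.2%, against 85.2%, for ICM over morula to 40.3%, against 59.7%, and for TE over morula to 44.3%, against 54.9%. Averaging the probes of a gene left blastocysts 0 members higher, the ICM 1 and the TE 1. Among probes in the upper 60% of intensity, 1 member, DHX16, passed as higher in the ICM than in blastocysts, where the main count was 0. Leaving out each replicate gave blastocysts 6 to 8 lower and 2 to 3 higher members, the ICM 5 to 8 and 3 to 4, and the TE 9 to 11 and 3. Without the replicate block blastocysts had 6 lower and 2 higher, the ICM 7 and 4, the TE 9 and 3, and the block changed no call of a member. ICM against TE gave 0 members under every alternative. Quantile scaling after loess leaves ratios as they are. The cause of these shifts was not tested, except that a lower fold minimum admits smaller differences. Readings of DHX33 at both stages and of DDX43 on day 9 lay near background and limit what their differences can show. DDX42, DDX3Y and DHX34 were no brighter than DDX43, at mean log2 intensities of 7.8, 8.0 and 6.9 against 8.0. They lay above background in all 8 samples, but their differences carry a like limit. With 2 arrays a group a smaller difference can be missed.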
